A study of Homo sapiens with 8 samples.

Results

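The BCL2 family members BCL2L1, BCL2L2, MCL1, BCL2L11, PMAIP1, BID, BAX, BAK1, BIK and BAD were followed in H460, an established line of human lung carcinoma, in cells with acquired resistance to TRAIL and in TRAIL-sensitive cells. Every probe set whose platform annotation names a single one of these 10 genes was taken, 31 of the 54613 probe sets tested. They comprise 12 probe sets of pro-survival members, 16 of BH3-only members and 3 of effectors. A further probe set that BCL2L2 shares with other genes was not used by name.

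The resistant group (H460R, acquired TRAIL-resistance) holds 4 arrays of cells given subtoxic TRAIL daily during a 6-month period, and the sensitive group (H460S, control) holds 4 arrays of TRAIL-sensitive H460 cells. The treatment note is attached to the arrays of both groups, so what the sensitive cells received is not stated separately. No genetic change is given for either group, and both grew in RPMI with fetal bovine serum. The labels give neither the TRAIL dose, nor the time since the last exposure, nor whether resistant cells are 1 clone or whether the arrays of a group come from separate cultures. P-values are thus a measure of the spread among these arrays alone, possibly technical, and resistance cannot be told apart from long TRAIL exposure or time in culture.

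TRAIL is a ligand that triggers apoptosis through death receptors and caspase-8. Proteins of the BCL2 family decide whether the outer mitochondrial membrane is opened. The effectors BAX and BAK (gene BAK1) form the pores that release cytochrome c, and the pro-survival proteins MCL-1, BCL-XL (BCL2L1) and BCL-W (BCL2L2) restrain them. BH3-only proteins such as BIM (BCL2L11), NOXA (PMAIP1), BID, BIK and BAD bind the pro-survival proteins, and BIM and truncated BID also activate the effectors directly. Caspase-8 cleaves BID, which links death receptors to mitochondria.

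Values are the deposited linear signals, which share a common trimmed mean on every array; the step that made them is not settled. A change is the resistant minus the sensitive mean of log2(signal + 1), given with its standard error (SE) from limma and n = 4 arrays per group. Rises and falls are changes with a limma p below 0.05 after Benjamini-Hochberg adjustment over all 54613 probe sets. Probe sets below the median of mean log2 levels, 5.01 or a signal near 31.2, are called dim. In all, 19.5% of probe sets passed. The epithelial keratin genes KRT8 and KRT18 were bright in both groups, with mean log2 levels of 11.36 and 13.12 in resistant cells and 11.41 and 13.18 in sensitive cells, whereas the epithelial adhesion genes EPCAM and CDH1 were dim. Signals summed over 6 epithelial markers were 13621.6 to 16352.6 in resistant and 17311.1 to 20118.9 in sensitive arrays, and KRT19 fell by 1.24 (adjusted p = 0.000116). Of 5 fibroblast markers 2 were not dim, with sums of 1126.2 to 1271.4 in resistant and 1245.7 to 1406.3 in sensitive arrays, and the dim LUM fell by 3.27 (adjusted p = 0.00337). Signals summed over 3 measured blood cell markers were 114.0 to 135.4 in resistant and 105.2 to 133.5 in sensitive arrays. The 3′ minus 5′ difference of the ACTB control probe sets, a measure of RNA quality, was 0.11 ± 0.01 in resistant and 0.23 ± 0.00 in sensitive arrays (SD, n = 4 each; exact two-sided permutation p = 0.0286, the smallest that 4 against 4 arrays allow). The part of these markers and of the ACTB difference in the results was not tested. The same difference for GAPDH was -0.13 ± 0.07 in resistant and -0.14 ± 0.01 in sensitive arrays (exact permutation p = 0.686). With the GAPDH difference as a covariate 8 of the 9 calls described next held, and BID 211725_s_at did not pass (0.39, adjusted p = 0.0617). As the GAPDH difference did not separate the groups, that fit is no test of the ACTB difference.

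The promoter windows of BCL2L11 and PMAIP1 are shown because these are BH3-only genes whose brightest probe sets moved in opposite directions and because each has a single window in the RefSeq table. Each window runs from 250 bases before the gene's start to 50 bases after it, on the plus strand of GRCh38.p14. BCL2L11 lies on chromosome 2 (window chr2:111120664-111120963) and PMAIP1 on chromosome 18 (window chr18:59899746-59900045). Capitals mark GTAAACA, a core recognised by forkhead factors such as FOXO3, in the first sequence. In the second they mark TGACG, a core of the site of ATF and CREB factors, which there reads on the minus strand and is printed as its complement.
BCL2L11: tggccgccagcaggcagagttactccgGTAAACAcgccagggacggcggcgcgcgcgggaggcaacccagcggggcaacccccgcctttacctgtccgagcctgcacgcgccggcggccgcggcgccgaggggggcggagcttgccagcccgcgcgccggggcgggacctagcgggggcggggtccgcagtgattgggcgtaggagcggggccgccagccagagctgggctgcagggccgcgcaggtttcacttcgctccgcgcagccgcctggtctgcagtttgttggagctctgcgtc
PMAIP1: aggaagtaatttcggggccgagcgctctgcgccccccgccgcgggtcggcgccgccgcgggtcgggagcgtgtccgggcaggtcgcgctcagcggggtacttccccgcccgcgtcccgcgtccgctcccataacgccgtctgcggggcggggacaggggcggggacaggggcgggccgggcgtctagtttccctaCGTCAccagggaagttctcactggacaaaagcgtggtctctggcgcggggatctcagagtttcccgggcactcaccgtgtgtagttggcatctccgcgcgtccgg
The forkhead core begins 223 bases before the BCL2L11 start, and 3.42% of the 35116 promoter windows in the table hold it on either strand. The ATF/CREB core begins 55 bases before the PMAIP1 start, and 24.6% of all windows hold it. The BCL2L11 window has 0 ATF/CREB cores and the PMAIP1 window 0 forkhead cores. Both hold GC boxes (GGGCGG on either strand), 3 in BCL2L11 and 4 in PMAIP1, a motif found in 45.0% of all windows; no match overlaps another motif's. The motifs were chosen after the sequences were seen, and a match is a description of the letters, not a site or a cause. Of the 10 members, 7 have at least 1 window in the table; MCL1, BCL2L2 and BIK were not matched.

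Transcripts of the pro-survival members MCL1 and BCL2L2 were lower in resistant cells, and no probe set of BCL2L1 passed. Among the BH3-only members BCL2L11 rose on 1 of 7 probe sets, BID rose on 2 of 3 and PMAIP1 fell on 1 of 2, whereas no probe set of the effectors BAX and BAK1 passed. Of the 31 probe sets, 3 rose and 6 fell (29.0%, against 19.5% of all probe sets). Probe sets at or above the median level pass more often, and there the shares lay close together: 9 of 27 (33.3%) for the members and 34.2% for all 27307 such probe sets. The 4 resistant arrays lay all above or all below the 4 sensitive arrays for 13 of the 31 probe sets (41.9%, against 26.4% of all). At or above the median level they did so for 13 of 27 (48.1%, against 46.0% of all such probe sets), so neither share is read as particular to the members. Probe sets of 1 gene can detect the same transcripts and are not treated as independent of each other. In cultures measured in bulk, a change in the share of cells that express a gene and a change in its RNA per cell cannot be told apart.

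**Figure D1:**
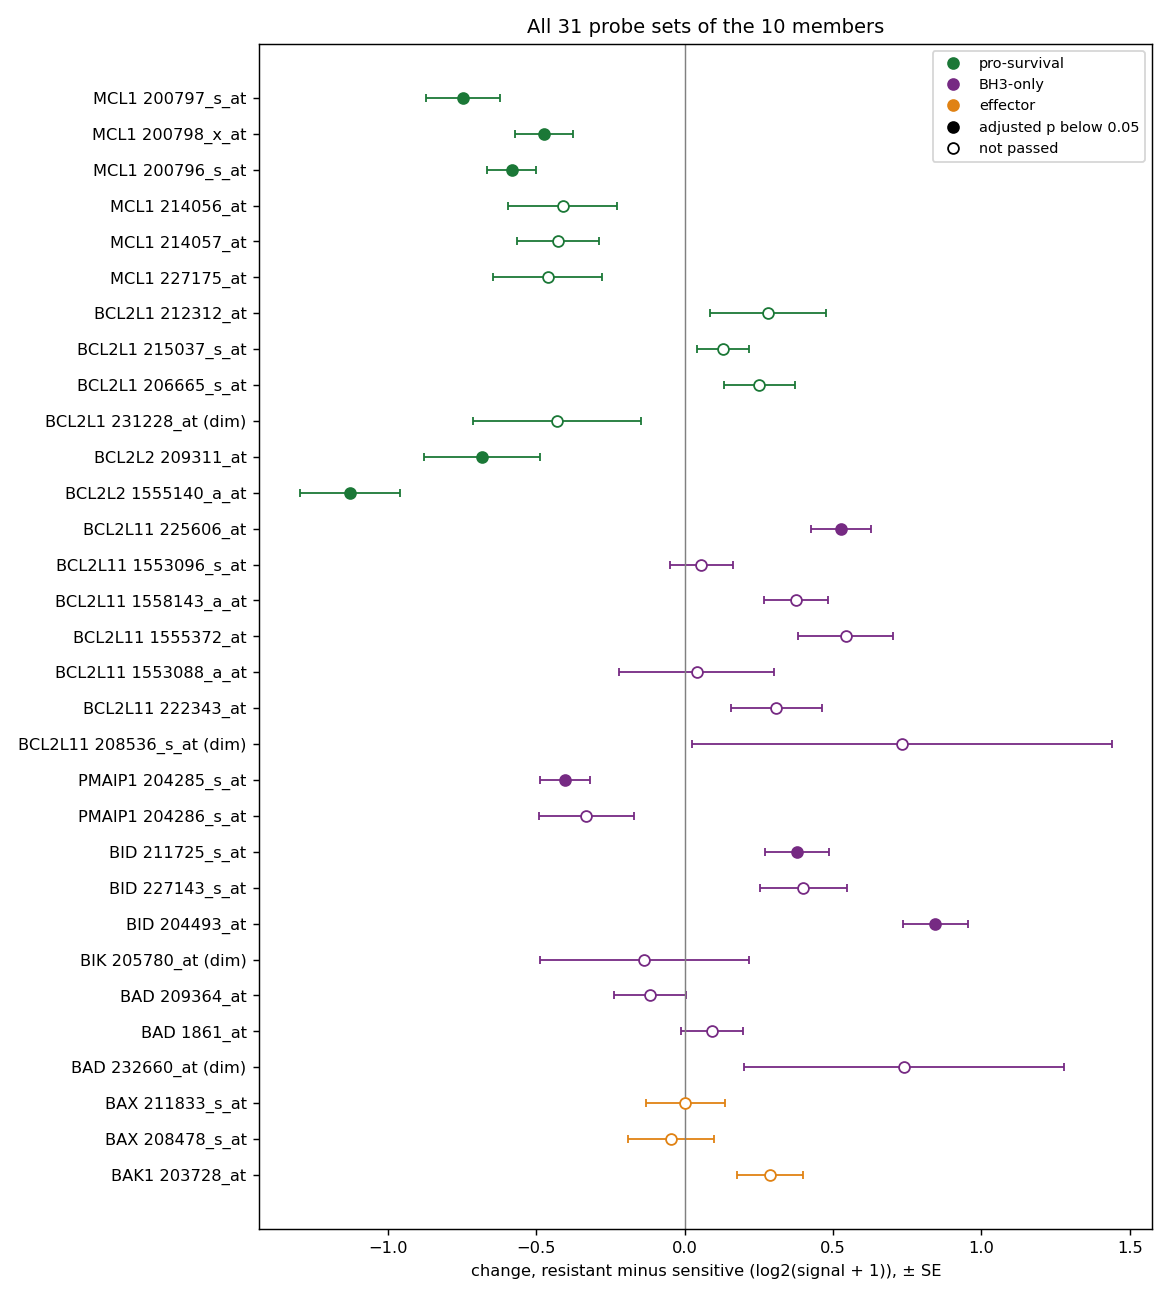
Change of each of the 31 probe sets, resistant minus sensitive mean of log2(signal + 1) with its SE from limma, grouped by role (pro-survival, BH3-only, effector) and within a gene from the brightest probe set down. Filled points passed at an adjusted p below 0.05, and dim probe sets are marked; all 6 MCL1 points lie left of 0, and the BCL2L11 points lie right of it, though that of 1553088_a_at turns below 0 in 4 of 16 alternative settings and that of 208536_s_at is dim.

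MCL1, whose protein binds BIM, NOXA and BAK and is turned over rapidly, was lower by estimate on all 6 of its probe sets. On the brightest, 200797_s_at, the signals were 8905, 9456, 8856 and 11758 in resistant arrays, against 17774, 15270, 16021 and 15988 in sensitive arrays. The groups did not overlap, and the brightest resistant array, replicate 4, still lay well under the dimmest sensitive one. The level fell to a log2 value of 13.24 ± 0.19 in resistant cells, against 13.99 ± 0.09 in sensitive cells (SD, n = 4), a change of -0.75 ± 0.12 (SE; limma adjusted p = 0.00552), or 0.596 of the sensitive signal. Among all probe sets at or above the median level, 18.0% changed by at least as much in either direction. Quantile normalization reduced the change of 200797_s_at to -0.51 (limma adjusted p = 0.00431), so its size depends on the scaling. On 200796_s_at the signals were 1839, 1880, 1920 and 1926 in resistant arrays, against 2807, 2737, 2995 and 2799 in sensitive arrays. The spread within each group was small beside this gap, and the probe set fell by 0.58 ± 0.08 (SE; adjusted p = 0.00282). Signals on 200798_x_at were 5479, 5858, 6160 and 6137 in resistant arrays and 7357, 8336, 8689 and 8444 in sensitive arrays, again with no overlap, and it fell by 0.47 ± 0.10 (SE; adjusted p = 0.0139).

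The 3 probe sets that passed all carry a suffix (_s or _x) that marks possible cross-hybridisation, and the 3 without one did not pass. With suffixed probe sets dropped, MCL1 as a gene gave -0.41 (adjusted p = 0.154 over genes) in place of -0.75 (adjusted p = 0.00217), which ends the call. The estimates without a suffix were -0.41 ± 0.18 for 214056_at (adjusted p = 0.176), -0.43 ± 0.14 for 214057_at (adjusted p = 0.0724) and -0.46 ± 0.18 for 227175_at (adjusted p = 0.133; SE in each). On 227175_at the signals were 119, 153, 119 and 136 in resistant arrays, against 254, 164, 159 and 162 in sensitive arrays. The groups did not overlap there, and sensitive array 1 stood far above the other arrays of its group. The difference between the brightest and the next brightest probe set of MCL1 was 0.71 ± 0.17 in resistant and 0.99 ± 0.19 in sensitive arrays (SD), a shift of -0.27 ± 0.13 (SE). That test, run over the 6078 genes with a pair of probe sets at or above the median level, did not separate the MCL1 pair (limma adjusted p = 0.256), and it called 7.80% of those genes. After median centring of the arrays 200798_x_at no longer passed (-0.40, adjusted p = 0.0578), while the other falls of MCL1 stayed past the threshold.

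BCL2L2, which encodes BCL-W, fell on both of its probe sets. On 1555140_a_at the signals were 41.7, 62.8, 66.2 and 64.3 in resistant arrays, against 136, 140, 117 and 119 in sensitive arrays. Each resistant array was well below every sensitive array, with resistant array 1 the lowest. The change of -1.13 ± 0.17 (SE; adjusted p = 0.00366) was the most negative of the 31 estimates, and 6.68% of all probe sets at or above the median level changed by at least as much. On 209311_at, the brighter of the pair, the signals were 459, 399, 450 and 291 in resistant arrays, against 794, 623, 509 and 635 in sensitive arrays. The groups did not overlap, but resistant array 1 and sensitive array 3 came close to each other. The change was -0.68 ± 0.20 (SE), which passed narrowly (adjusted p = 0.0494). It did not pass when any 1 array other than sensitive array 3 was left out, with changes of -0.79 to -0.54 over the 8 cases and adjusted p-values up to 0.105, nor after median centring (-0.61, adjusted p = 0.0750).

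BCL2L1 encodes BCL-XL and, by alternative splicing, the shorter pro-apoptotic form BCL-XS, and its probe sets were not assigned to either form. None of its 4 probe sets passed. On the brightest, 212312_at, the signals were 343, 376, 404 and 273 in resistant arrays, against 302, 220, 265 and 368 in sensitive arrays. The groups overlapped, with resistant array 4 among the sensitive arrays and sensitive array 4 among the resistant ones. The estimate was 0.28 ± 0.20 (SE; adjusted p = 0.389). The estimates for 215037_s_at and 206665_s_at were 0.13 ± 0.09 and 0.25 ± 0.12 (SE; adjusted p = 0.379 and 0.207), and that for the dim 231228_at was -0.43 ± 0.28 (SE; adjusted p = 0.360).

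**Figure D2:**
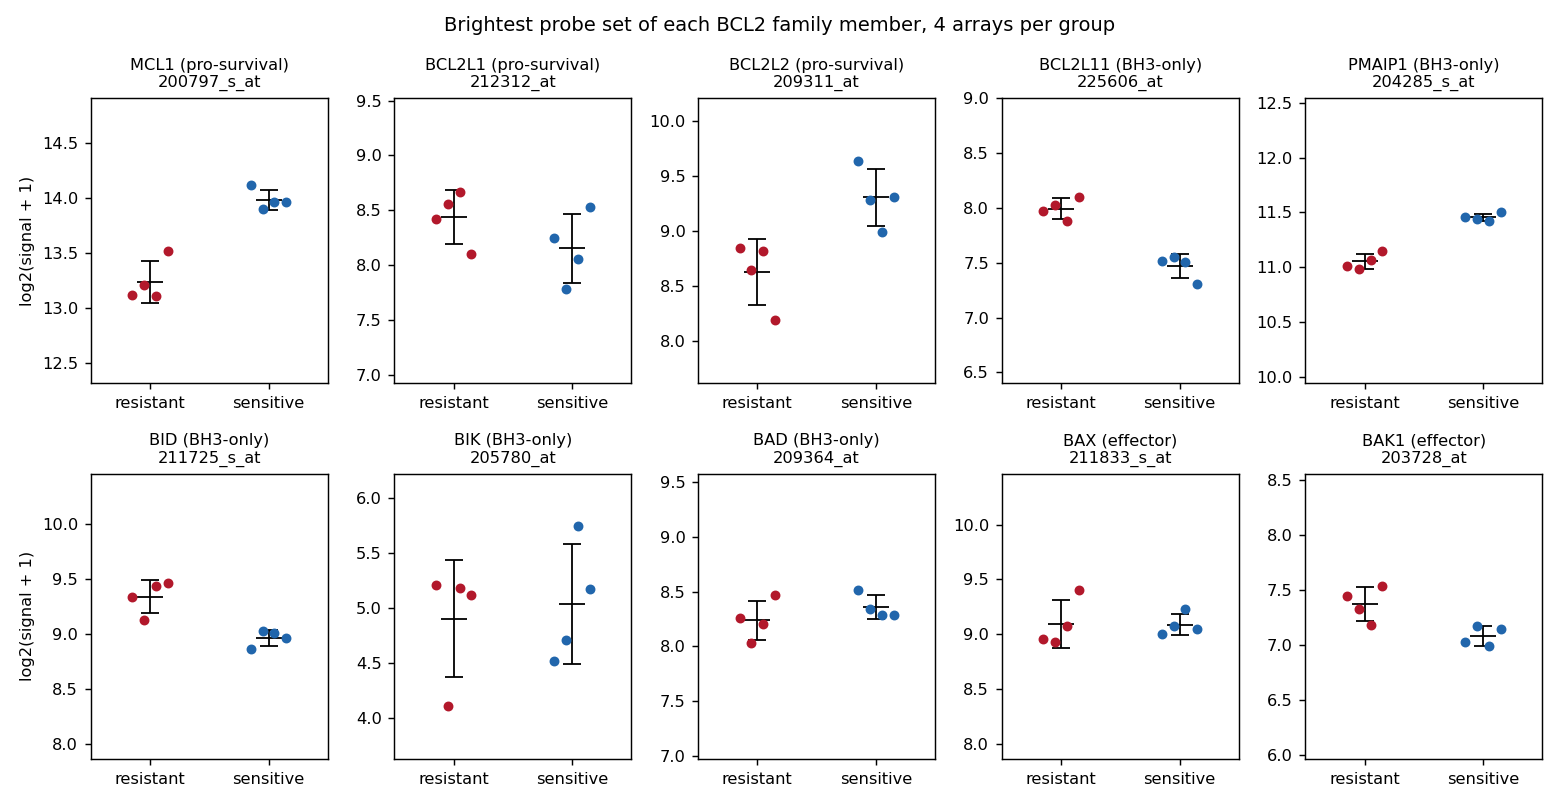
log2(signal + 1) of the brightest probe set of each of the 10 members in the 4 resistant (left, red) and 4 sensitive arrays (right, blue), with mean ± SD; every panel spans the same range of the log2 scale. The groups are apart for MCL1, BCL2L2, BCL2L11, PMAIP1, BID and BAK1 and overlap for BCL2L1, BIK, BAD and BAX.

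BCL2L11, the gene of BIM, a BH3-only protein that binds all pro-survival members, rose on its brightest probe set, 225606_at. The signals there were 250, 260, 234 and 273 in resistant arrays, against 181, 186, 181 and 157 in sensitive arrays. All resistant arrays lay above all sensitive ones. The log2 level was 7.99 ± 0.09 in resistant cells, against 7.47 ± 0.11 in sensitive cells (SD, n = 4), a change of 0.53 ± 0.10 (SE; adjusted p = 0.0103) or 1.44-fold. The other 6 probe sets of the gene did not pass; their estimates were above 0, but 1 is dim and that of 1553088_a_at changed sign between settings. Of these, 1558143_a_at had signals of 162, 161, 147 and 147 in resistant arrays, against 125, 107, 134 and 110 in sensitive arrays. The groups were apart, and the estimate of 0.38 ± 0.11 (SE; adjusted p = 0.0512) passed in 7 of 16 alternative settings, with adjusted p-values of 0.00957 to 0.152 over them. On 1555372_at the signals were 129, 115, 120 and 105 in resistant arrays, against 74.5, 74.7, 68.8 and 107 in sensitive arrays. The groups met there through sensitive array 4 alone, and the estimate of 0.54 ± 0.16 (SE; adjusted p = 0.0534) passed in 6 of the 16 settings, with adjusted p-values of 0.0120 to 0.162.

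Whether the probe sets of BCL2L11 moved by one amount was tested on its 2 brightest, and the outcome depended on the setting. On 1553096_s_at, the next brightest after 225606_at, the signals were 151, 130, 152 and 143 in resistant and 158, 133, 134 and 131 in sensitive arrays. The groups overlapped throughout, and the estimate was 0.06 ± 0.11 (SE; adjusted p = 0.787). The difference between 225606_at and 1553096_s_at was 0.82 ± 0.17 in resistant and 0.34 ± 0.13 in sensitive arrays (SD), and the groups did not overlap, as for 16.1% of such genes. This shift of 0.47 ± 0.12 (SE) passed narrowly in the fit over 6078 genes (limma adjusted p = 0.0462, against 7.80% of those genes called). It lost the call in 12 of 16 alternative settings. These were each of the 8 arrays left out, with shifts of 0.41 to 0.54 and adjusted p-values of 0.0520 to 0.123, quantile normalization (0.46, adjusted p = 0.0532), array weights (0.41, adjusted p = 0.0578), the GAPDH covariate (0.48, adjusted p = 0.0560) and the replicate number as a block (adjusted p = 0.104). The estimate for 222343_at was 0.31 ± 0.15 and that for 1553088_a_at 0.04 ± 0.26 (SE; adjusted p = 0.226 and 0.943), where resistant array 4 had a signal of 47.6 and the other resistant arrays 85.7 to 109. Over the alternative settings 1553088_a_at ranged from -0.09 to 0.30, below 0 in 4 of 16, so no direction can be given for it. The dim 208536_s_at gave 0.73 ± 0.71 (SE; adjusted p = 0.551). The RefSeq table lists 33 transcripts for BCL2L11, more than for any other of the 10 members, and which of them each probe set detects was not analysed here.

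BID, the substrate through which caspase-8 engages mitochondria, rose on 2 of its 3 probe sets. On 204493_at the signals were 247, 272, 231 and 235 in resistant arrays, against 156, 134, 134 and 124 in sensitive arrays. The groups were clearly apart, and the change of 0.84 ± 0.11 (SE; adjusted p = 0.00195), or 1.80-fold, was the highest of the 31 estimates. Among all probe sets at or above the median level, 13.7% changed by at least as much. On the brightest probe set, 211725_s_at, the signals were 646, 559, 694 and 705 in resistant arrays, against 465, 520, 513 and 499 in sensitive arrays. The groups did not overlap, and the change was 0.38 ± 0.11 (SE; adjusted p = 0.0491). It did not pass when any 1 array other than resistant array 2 was left out, with changes of 0.34 to 0.45 over the 8 cases and adjusted p-values up to 0.126. The third probe set, 227143_s_at, had an estimate of 0.40 ± 0.15 (SE; adjusted p = 0.104) and overlapping groups.

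**Figure D3:**
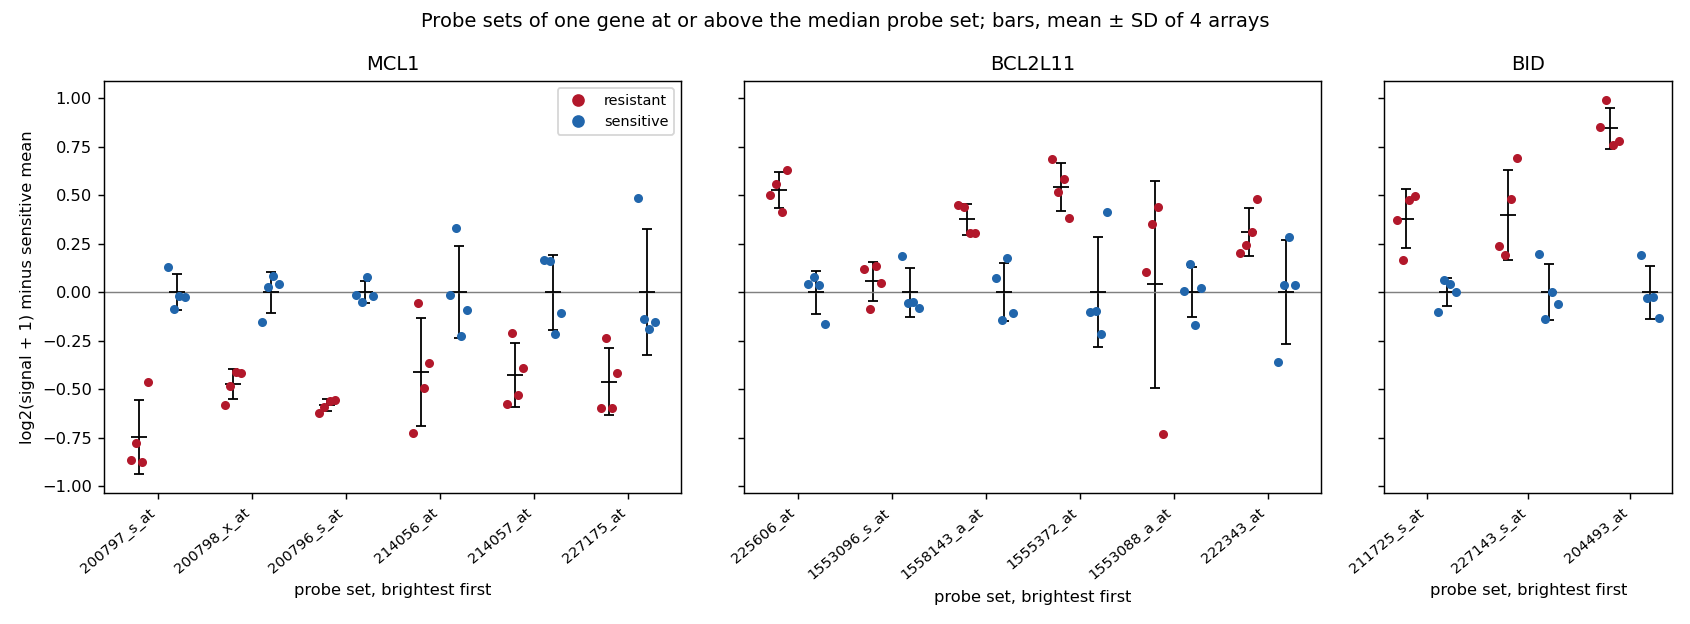
Probe sets of MCL1, BCL2L11 and BID at or above the median level, each as log2(signal + 1) minus its sensitive mean, with the resistant arrays (red) left of the sensitive arrays (blue) and bars for the mean ± SD of 4 arrays. The resistant means are -0.75 to -0.41 for the 6 MCL1 probe sets, 0.04 to 0.54 for 6 BCL2L11 probe sets and 0.38 to 0.84 for the 3 BID probe sets.

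PMAIP1, the gene of NOXA, which binds MCL-1 with preference and promotes its degradation, fell on its brighter probe set. On 204285_s_at the signals were 2063, 2028, 2141 and 2269 in resistant arrays, against 2817, 2775, 2750 and 2895 in sensitive arrays. All resistant arrays lay below all sensitive ones, and the spread within each group was small. The change was -0.40 ± 0.09 (SE; adjusted p = 0.0152), or 0.756 of the sensitive signal. Leaving out resistant array 1 gave -0.39 (adjusted p = 0.0501) and median centring gave -0.33 (adjusted p = 0.0523), neither of which passed. Nor did it pass with the replicate number as a block (limma adjusted p = 0.0903). Both PMAIP1 probe sets carry the _s suffix, so the fall cannot be checked on a probe set without one. On 204286_s_at the signals were 1036, 1170, 1291 and 837 in resistant and 1327, 1339, 1553 and 1194 in sensitive arrays, which overlapped through sensitive array 4, and the estimate was -0.33 ± 0.16 (SE; adjusted p = 0.211).

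The remaining BH3-only members gave no call. BAD, which binds BCL-XL, BCL-W and BCL2 and is held inactive by phosphorylation, had signals of 305, 261, 293 and 353 in resistant and 365, 322, 312 and 310 in sensitive arrays on 209364_at. The groups overlapped, and the estimates of its 2 brighter probe sets had opposite signs, -0.12 ± 0.12 for 209364_at and 0.09 ± 0.10 for 1861_at (SE; adjusted p = 0.587 and 0.617). Its dim probe set 232660_at gave 0.74 ± 0.54 (SE; adjusted p = 0.415). BIK, a BH3-only protein of the endoplasmic reticulum, was measured by 1 dim probe set, 205780_at, with signals of 35.9, 16.2, 35.2 and 33.7 in resistant and 22, 25.2, 52.7 and 35.1 in sensitive arrays. The estimate was -0.14 ± 0.35 (SE; adjusted p = 0.847), and it turned to 0.13 without resistant array 2 and to 0.10 without sensitive array 3, so no direction can be given.

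The effectors gave no call either, though BAK1 did in some alternative settings. BAX had signals of 495, 486, 540 and 675 in resistant arrays and 511, 539, 600 and 528 in sensitive arrays on 211833_s_at. The groups overlapped, and the estimate was 0.00 ± 0.13 (SE; adjusted p = 0.996). The other BAX probe set, 208478_s_at, gave -0.05 ± 0.14 (SE; adjusted p = 0.875). BAK1 had signals of 173, 160, 144 and 184 in resistant arrays, against 129, 143, 126 and 141 in sensitive arrays on its single probe set, 203728_at. The resistant arrays all lay above the sensitive ones, though resistant array 3 barely did so, and the estimate was 0.29 ± 0.11 (SE; adjusted p = 0.123). BAK1 passed when the fit and its adjustment were rerun without dim probe sets (limma adjusted p = 0.0330). Adjusted over genes it did not pass (adjusted p = 0.0652), but did in 5 of 18 alternative settings, quantile normalization (0.34, adjusted p = 0.0421) and median centring (0.36, adjusted p = 0.0367) among them, with adjusted p-values of 0.0225 to 0.151 over the 18.

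Set side by side by role, 0 of the 12 pro-survival probe sets rose and 5 fell, against 9.13% and 10.4% of all probe sets. At or above the median level, where 16.4% of all probe sets rose and 17.8% fell, the counts were 0 risen and 5 fallen of 11 pro-survival probe sets. There 3 of 13 BH3-only probe sets rose and 1 fell, and 0 of 3 effector probe sets passed. Among probe sets at or above the median level, the median change was -0.46 for 11 pro-survival probe sets and 0.19 for 16 BH3-only and effector probe sets, beside -0.02 for all such probe sets. These medians carry no test, and 6 of the 11 pro-survival probe sets belong to MCL1. After median centring they were -0.39 and 0.26, after quantile normalization -0.42 and 0.23. With 1 probe set per gene, the brightest, the median change of the 3 pro-survival genes was -0.68 and that of the 7 pro-apoptotic genes 0.00. The 7 include BIK, whose only probe set is dim, whereas the probe set medians leave dim ones out. The values 0.19 and 0.00 thus differ in this filter as well as in counting probe sets or genes, and which matters was not tested.

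The balance of each pro-survival gene against each pro-apoptotic gene was described by the change of their log2 difference within arrays, on the brightest probe sets. These differences carry no test, since the 21 pairs share genes and arrays. The difference was lower in resistant cells for 17 of the pairs and higher for 4, and those 4 are pairs of BCL2L1. On these probe sets MCL1 and BCL2L2 changed by -0.75 and -0.68, below every pro-apoptotic gene (the lowest, PMAIP1, -0.40). All of their pairs are lower for that reason alone, so the 17 is not read as a shift of the whole family. Pairs with BIK rest on a dim probe set. The groups were apart for 10 pairs, all of them lower and all pairs of MCL1 or BCL2L2. Of single probe sets at or above the median level 46.0% already had groups apart, and the share for pairs of genes was not computed. The brightest probe sets of MCL1 and BCL2L2 had groups apart on their own, so the count is not read as particular to these pairs. MCL1 relative to BCL2L11 shifted by -1.27, to 0.414 of its sensitive value, with SDs of 0.12 over resistant and 0.14 over sensitive arrays. That size rests on the probe sets taken. The other MCL1 probe sets changed by -0.58 to -0.41 and the next brightest of BCL2L11 by 0.06, and pairs of those were not formed. MCL1 relative to BAK1 shifted by -1.04 and relative to BAX by -0.75, with groups apart in both. MCL1 and PMAIP1, which both fell, gave the smallest shift among the MCL1 pairs, -0.34, also with groups apart. BCL2L2 relative to BCL2L11 shifted by -1.21. BCL2L1 behaved otherwise: its 7 shifts lay between -0.24 (against BCL2L11) and 0.69 (against PMAIP1), and the groups overlapped in every one.

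Other genes of the pathway were counted at the level of genes, each represented by its brightest probe set, with adjustment over 19775 genes, of which 30.3% passed, 14.7% higher and 15.6% lower. Of 4 other pro-survival members 1 rose, BCL2L12, a distant member of the family. Its log2 levels were 9.03, 8.95, 8.88 and 9.24 in resistant arrays, against 8.31, 8.58, 8.36 and 8.39 in sensitive arrays. All resistant arrays lay above the sensitive ones, and the change was 0.62 ± 0.11 (SE; adjusted p = 0.00388). The median change of the list was 0.43, which is set by the dim genes BCL2A1 and BCL2L10, neither of which passed.

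Of 12 measured further effector and BH3-type genes, 0 rose and 5 fell, with a median change of -0.31 beside -0.03 for all genes. MOAP1, a partner of BAX, had log2 levels of 9.84, 9.71, 9.72 and 9.64 in resistant arrays, against 10.90, 11.01, 10.95 and 10.92 in sensitive arrays. The gap was many times the spread within either group, and the change was -1.22 ± 0.07 (SE; adjusted p = 3.55e-05). BCL2L13, a mitochondrial member of the family, fell by 0.59 ± 0.09 (SE; adjusted p = 0.00201). BNIP3L and BNIP3, BH3-type proteins best known as mitophagy receptors and targets of hypoxia-inducible factors, fell by 1.66 ± 0.07 and 1.02 ± 0.07 (SE; adjusted p = 1.21e-05 and 8.47e-05).

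Downstream of the membrane, 2 of 14 measured genes of mitochondrial release and the apoptosome rose and 2 fell, and the median change was 0.04. CASP9, the caspase activated by the apoptosome, had log2 levels of 8.50, 8.41, 8.47 and 8.61 in resistant arrays, against 9.49, 9.40, 9.42 and 9.42 in sensitive arrays. It fell by 0.93 ± 0.07 (SE; adjusted p = 0.000107), but its probe set without a suffix for possible cross-hybridisation gave -0.13 (adjusted p = 0.606). CYCS, the gene of cytochrome c, rose by 0.35 ± 0.10 and VDAC3, a channel of the outer membrane, by 0.28 ± 0.07 (SE; adjusted p = 0.0344 and 0.0147). HTRA2, a protease released with cytochrome c, fell by 0.33 ± 0.09 (SE; adjusted p = 0.0294). CYCS did not pass without resistant array 2 or any 1 of the 4 sensitive arrays (adjusted p up to 0.0793), HTRA2 without any 1 array other than sensitive array 1 (adjusted p up to 0.0757) or after median centring (-0.26, adjusted p = 0.151), and VDAC3 not with the mean of all its probe sets (0.16, adjusted p = 0.205).

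**Figure D4:**
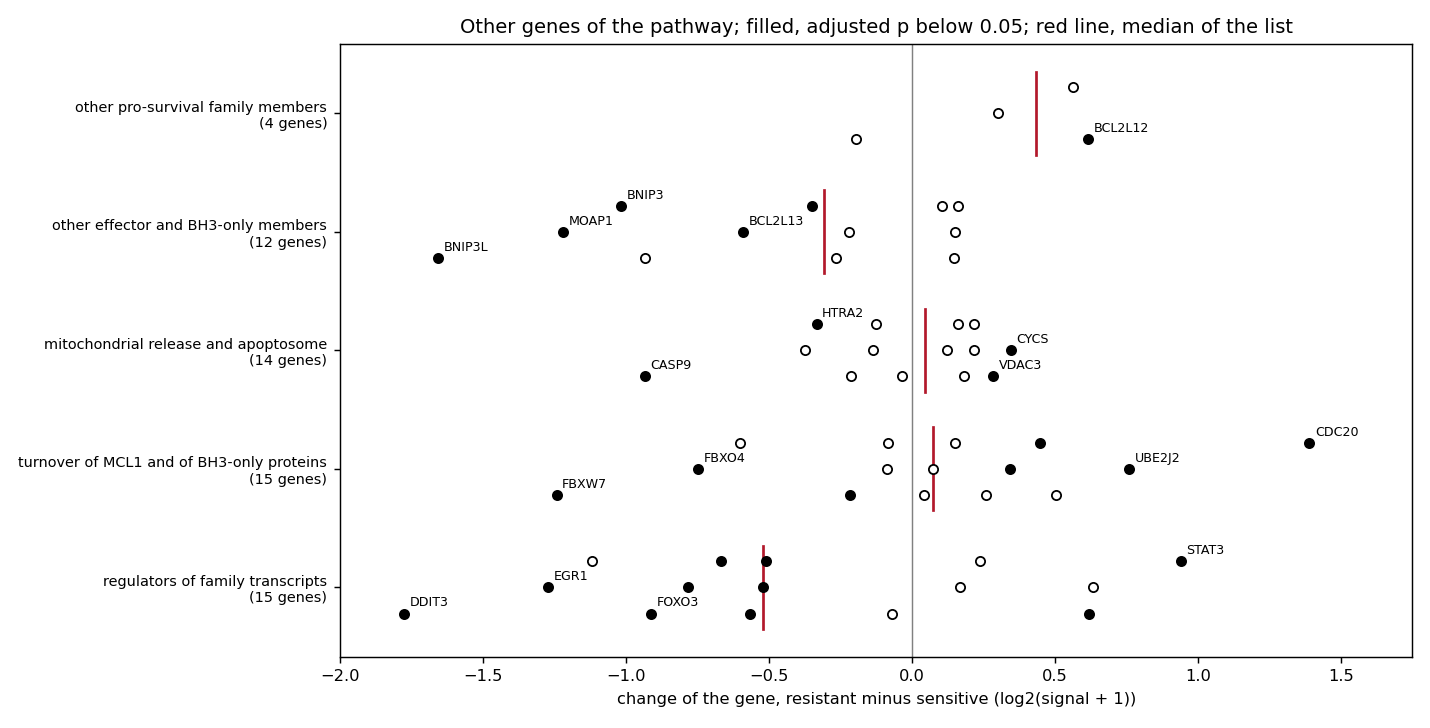
Change of each measured gene of 5 lists, resistant minus sensitive mean of log2(signal + 1), with filled points for an adjusted p below 0.05 and a red line at the median of each list; up to 4 genes per list carry their names. All 5 filled points of the further effector and BH3-type genes lie left of 0, and the regulators of family transcripts hold 8 filled points left of 0 and 2 right of it.

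Stability of MCL-1 and of BH3-only proteins is set in large part by ubiquitin ligases. The list taken for their turnover also holds conjugating and deubiquitinating enzymes and kinases, so it does not count ligases alone. Of its 15 genes 4 rose and 3 fell, with a median change of 0.07. These genes do not all act on stability in 1 direction, so the counts give no direction for it. FBXW7, the substrate receptor of a ligase complex that marks MCL-1 for degradation, had log2 levels of 6.58, 6.42, 6.36 and 5.95 in resistant arrays, against 7.45, 7.67, 7.60 and 7.56 in sensitive arrays. It fell by 1.24 ± 0.14 (SE; adjusted p = 0.000597), with no overlap between the groups. CDC20, a mitotic gene whose protein switches on the anaphase-promoting complex, rose by 1.39 ± 0.08 (SE; adjusted p = 3.41e-05). UBE2J2, a ubiquitin-conjugating enzyme, rose by 0.76 ± 0.07 and the F-box gene FBXO4 fell by 0.75 ± 0.09 (SE; adjusted p = 0.000282 and 0.000881). With the mean of all probe sets FBXO4 gave 0.20 (adjusted p = 0.723), so its direction depends on the probe set, and the UBE2J2 probe set lacking such a suffix gave 0.51 (adjusted p = 0.200).

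Of 15 measured transcription factors listed as regulators of family transcripts, 2 rose and 8 fell, with a median change of -0.52. FOXO3, a forkhead factor known to activate BCL2L11, had log2 levels of 8.79, 8.79, 8.78 and 8.66 in resistant arrays, against 9.55, 9.76, 9.65 and 9.69 in sensitive arrays. It fell by 0.91 ± 0.08 (SE; adjusted p = 0.000158), while BCL2L11 itself was higher. DDIT3, the gene of CHOP, a stress factor also known to raise BIM, fell by 1.78 ± 0.09 (SE; adjusted p = 1.83e-05). STAT3, known to drive MCL1 transcription in other cells, had log2 levels of 10.07, 10.11, 10.10 and 10.09 in resistant arrays, against 9.11, 9.22, 9.22 and 9.06 in sensitive arrays. It rose by 0.94 ± 0.07 (SE; adjusted p = 8.30e-05), while MCL1 itself was lower. EGR1, an immediate early factor, fell by 1.27 ± 0.14 (SE; adjusted p = 0.000594). With the mean of all its probe sets FOXO3 did not pass (-0.53, adjusted p = 0.0675). Not every factor that passed ran against a member. ATF4 and ATF3 fell by 0.51 ± 0.06 and 0.78 ± 0.08 (SE, limma adjusted p = 0.000916 and 0.000377), and PMAIP1 fell too on its brighter probe set. Transcript levels of these factors do not show their activity, and no link between a factor and a member was tested.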

How the data were processed

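Human H460 cells were measured on 8 Affymetrix arrays, 4 TRAIL-resistant and 4 TRAIL-sensitive, grouped by their titles. The deposited intensity values of 54675 probe sets per array are linear; the submitters' processing notes name RMA, but a mean of 200 after trimming 2% at each end of every array is the form of MAS 5-type scaling, so the step that made them is not settled. A change in total RNA per cell cannot be seen in such values, and the number of arrays limits the precision. The 62 control probe sets were left out of the tests, and 1801 probe sets with several symbols were not used by name. Symbols of 41043 of 41097 probe sets with 1 symbol were matched to the RefSeq table of GRCh38.p14.

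Values were transformed to log2(signal + 1) and fitted in R 4.3.3 with limma 3.58.1 (lmFit, eBayes, Benjamini-Hochberg) over all probe sets, over 19775 genes by brightest probe set, and over within-gene differences of the 2 brightest probe sets. Fits were tested on simulated data. The members and lists were chosen with earlier results of these data known. Named were all members and, of each list, up to 4 genes with the largest changes among those that passed. ATF4 and ATF3 were named in addition. Alternatives covered a replicate block, pseudocount, scaling, filters, the variance model, array weights, an RNA quality covariate, other probe sets per gene and each array left out.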

Additional observations from a re-analysis of the deposited data

Results flagged for a closer look

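Of 100 sets of 4 arrays tested for an array far from the others of its group, 7 held one, and chance alone gives about 1 in 20. MCL1 on 227175_at stood at a log2 level of 7.99 in sensitive array 1, against 7.32 to 7.37 in the other sensitive arrays; without that array the estimate was -0.30 (adjusted p = 0.172). BCL2L2 on 1555140_a_at stood at 5.42 in resistant array 1, against 5.99 to 6.07 in the other resistant arrays, and passed without it. BCL2L11 on 1553096_s_at stood at 7.31 in sensitive array 1, against 7.04 to 7.07 in the others. BIK stood at 4.10 in resistant array 2, against 5.12 to 5.21 in the others. FOXO3 stood at 8.66 in resistant array 4, against 8.78 to 8.79 in the others, and fell without it too. The ACTB 3′ minus 5′ difference stood at 0.133 in resistant array 2, against 0.102 to 0.107 in the others, and at 0.226 in sensitive array 3, against 0.231 in the others. Sensitive array 1 and resistant array 2 each appeared in 2 of these sets.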

How the results depend on the processing

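Of the 31 member probe sets 9 passed, beside 10637 of all 54613. With dim probe sets left out 15 of 27 did, beside 13346 of 27307. With an intensity trend and a robust prior 15 of 31 did, beside 13670 of 54613. The count over all probe sets thus rose in both settings too. Leaving out each array gave 6 to 9 member probe sets, beside 7885 to 10134 of all. Replicate numbers did not pair the arrays (correlations of same-numbered deviations from -0.094 to 0.099); with them as a block, 3 member probe sets passed, 5062 probe sets in place of 10637, and 216 within-gene differences in place of 474. Those differences numbered 272 to 502 when leaving out each array. Of 60 pathway genes 27 passed, beside 5986 of all 19775 genes. With suffixed probe sets (_s, _x or _a) dropped, fewer genes were tested. There 15 of 49 pathway genes passed, beside 4108 of all 16788. FBXO4 turned to 0.20 (adjusted p = 0.723) with the mean of all its probe sets; the cause was not tested. Of the 9 member probe sets 3 passed under all 16 alternatives run on probe sets: MCL1 200796_s_at, BCL2L2 1555140_a_at and BID 204493_at. MCL1 200797_s_at and BCL2L11 225606_at missed only with the block (adjusted p = 0.0513 and 0.0798). On 1 probe set per gene, BCL2L11 missed with the mean of all probe sets (0.37, adjusted p = 0.0930) and MCL1 without suffixed ones (-0.41, adjusted p = 0.154). At that level BCL2L2 missed in 6 of 18 alternatives and BID in 5 of 18, with limma adjusted p-values up to 0.0711 and 0.0797. The block was among them for both genes. Dim probe sets, 4 of the 31, bear no direction.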
